A study of Rattus norvegicus with 13 samples.

Results

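The Frizzled and LRP receptors receive the Wnt signal at the cell surface, and their transcripts are described here in the ventricular zone (VZ) of the newborn rat brain. The members were taken by gene name from a list of 10: the Frizzled genes *Fzd1*, *Fzd2*, *Fzd3*, *Fzd5*, *Fzd6*, *Fzd7*, *Fzd8* and *Fzd9*, and the coreceptor genes *Lrp5* and *Lrp6*. Of these, 9 were matched to a row among the 14716 rows measured, 7 Frizzled genes and 2 coreceptor genes, and *Fzd1* was not analysed here. Rows averaging under 10 across the 13 pups were set aside, which left 14606, and every one of the 9 was kept.

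RNA-Seq was run on the posterior VZ, cut out by laser capture microdissection from 13 male Long Evans pups on postnatal day (PN) 2, with 1 pup from each litter. The 6 PTU exposed pups came from dams given 3 ppm propylthiouracil (PTU), a drug that blocks thyroid hormone synthesis, in their drinking water, and per the labels these pups were hypothyroid. The 7 control pups came from dams given the vehicle (0 ppm) and were euthyroid. Exposure was through the dam, so effects on the dam and on the pup cannot be told apart, and both groups are of 1 sex and 1 age. The comparison asks which transcripts of the neonatal VZ differ under reduced thyroid hormone.

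In the canonical pathway, a secreted Wnt binds a Frizzled receptor and the coreceptor LRP5 or LRP6 together. Dishevelled proteins are then recruited, the complex that marks beta-catenin for breakdown is held in check, and beta-catenin enters the nucleus to act with TCF/LEF factors. Some Frizzled proteins also serve the planar cell polarity pathway, which orients cells within an epithelium and does not use beta-catenin. In the VZ, Wnt signaling is known for keeping radial glia, the stem cells that line the ventricle, in a proliferating state.

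All 9 receptor transcripts had a lower mean log2 value in the PTU exposed than in the control VZ, and none passed the test over all rows. For *Fzd9* this held on the log scale only, as its mean normalized count was 69.8 in controls and 72.0 after PTU. With limma, 0 of the 9 had an adjusted p of at most 0.05, and so did 0% of the 14606 rows tested; the lowest adjusted p was 0.174 among the members and 0.0981 among all rows. Before adjustment, 5 of the 9 members (*Fzd2*, *Fzd3*, *Fzd6*, *Fzd7* and *Fzd8*) had a p under 0.05, all lower after PTU. This share of 55.6% stands beside 8.2% of all rows that were lower at that level (1198 rows), and 16.3% in either direction (2383 rows). The median log2 fold change was -0.29 over the 9 members and -0.31 over the 7 Frizzled genes, whereas the median of all rows was 0.00 and 49.3% of rows were lower. In 0 members did the groups fail to overlap, as against 0.596% of all rows. With equal totals for all pups, a scaling that shifts all rows alike, *Fzd9*, *Lrp5* and *Lrp6* were above 0, as described below.

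Proximal promoters of receptors that differ in their values are printed here to show the sequence in front of these genes. Of the 9 members, 4 were matched in the RefSeq promoter table (GRCr8, a later build than the one the reads were aligned to), namely *Fzd5*, *Fzd7*, *Fzd8* and *Fzd9*. Each window runs 5′ to 3′ from 250 bases before to 50 bases after the annotated start. *Fzd8* (chr17:62009744-62010043, plus strand) and *Fzd7* (chr9:68425288-68425587, plus strand) were chosen as members with an unadjusted p under 0.05, and *Fzd9* (chr12:27063390-27063689, plus strand) as the member with the smallest difference. Capitals mark CTTTGAA, one form of the TCF/LEF core.
Fzd8: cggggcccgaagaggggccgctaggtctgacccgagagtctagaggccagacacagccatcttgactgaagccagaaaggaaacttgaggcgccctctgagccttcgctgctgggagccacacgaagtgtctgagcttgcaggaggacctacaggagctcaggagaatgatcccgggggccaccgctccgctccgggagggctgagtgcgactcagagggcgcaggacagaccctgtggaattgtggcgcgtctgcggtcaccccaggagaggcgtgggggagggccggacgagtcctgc
Fzd7: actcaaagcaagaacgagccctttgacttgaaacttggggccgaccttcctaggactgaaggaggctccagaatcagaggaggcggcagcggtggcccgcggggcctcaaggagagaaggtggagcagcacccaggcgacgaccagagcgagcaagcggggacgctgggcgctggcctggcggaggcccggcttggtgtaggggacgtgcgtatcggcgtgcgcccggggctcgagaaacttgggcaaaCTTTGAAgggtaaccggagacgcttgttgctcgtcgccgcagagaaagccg
Fzd9: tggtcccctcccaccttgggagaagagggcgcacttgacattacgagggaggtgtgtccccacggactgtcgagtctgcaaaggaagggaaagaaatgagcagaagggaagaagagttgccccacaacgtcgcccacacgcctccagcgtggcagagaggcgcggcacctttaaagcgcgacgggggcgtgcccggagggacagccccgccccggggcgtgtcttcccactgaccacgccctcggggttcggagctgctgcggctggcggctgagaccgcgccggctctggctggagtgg
The *Fzd7* window held CTTTGAA once, at bases 250 to 256, on the printed strand. Searched on both strands, CTTTGAA was present in 5.40% of 33469 promoters of the same length, CTTTGAT, which shares its first letters, in 3.63%, and AGGTCA, the core that thyroid hormone receptors recognise, in 16.2%. None of these letters occurred elsewhere in the 4 windows. The *Fzd8*, *Fzd7*, *Fzd9* and *Fzd5* windows were 65.3%, 64.3%, 66.7% and 75.7% G and C, compared with a median of 51.7% over all promoters. They held 19, 27, 26 and 34 CpG dinucleotides, where the median promoter held 7. A match in letters describes the window and nothing more.

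The first group of receptors, *Fzd2* (ENSRNOT00000032944) and *Fzd7* (ENSRNOT00000021569), belongs with *Fzd1* to one subfamily of close relatives that can signal through beta-catenin. Values are normalized counts, meaning estimated read counts divided by a size factor for each pup; they are not divided by transcript length, so levels are not compared between genes. *Fzd2* ran from 1472 to 2351 with a median of 1620 in control pups and from 900.1 to 1541 with a median of 1471 in PTU exposed pups. All 6 PTU exposed pups lay below the control mean and 3 of them below the lowest control, but the groups overlapped. The means were 1783 ± 352 (SD, n = 7) and 1360 ± 248 (SD, n = 6), a log2 fold change of -0.39 with a standard error of 0.14 (limma, adjusted p = 0.194; exact permutation test, two-sided p = 0.0117). *Fzd7* ran from 482 to 723 with a median of 606 in controls and from 389 to 659 with a median of 496 in PTU exposed pups. Again 3 PTU exposed pups lay below every control, and 1 lay above the control mean. The *Fzd7* log2 fold change was -0.31 with a standard error of 0.13 (limma, adjusted p = 0.265; exact permutation test, p = 0.039). Reads shared among these relatives were divided by the E/M model that made the counts, and its part in the values was not tested.

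*Fzd5* (ENSRNOT00000019698) and *Fzd8* (ENSRNOT00000116071) form a second subfamily, also known for beta-catenin signaling in the developing forebrain and eye. *Fzd8* had the largest difference of the 9 members on the deposited scale, although *Fzd6* was lower with the neuron score (-0.25 against -0.19) or array weights (-0.43 against -0.39), and by a margin under the standard error without control replicate 6 or PTU replicate 1. With the neuron score *Fzd3* (-0.201), *Fzd9* (-0.200) and *Fzd7* (-0.192) were also lower than *Fzd8* (-0.186). *Fzd8* ran from 696 to 1133 with a median of 798 in control pups and from 439.9 to 801 with a median of 666 in PTU exposed pups. All 6 PTU exposed pups were below the control mean and 4 were below the lowest control, while the other 2 lay within the control range. The control mean was 867 ± 156 (SD, n = 7). After PTU it was 633 ± 155 (SD, n = 6), or 28.0% lower on the log scale. The log2 fold change was -0.47 (SE 0.16, 95% interval -0.81 to -0.14; limma, adjusted p = 0.174; exact permutation test, p = 0.0169). *Fzd5* spread more widely, from 211 to 476 with a median of 366 in controls and from 168 to 430.4 with a median of 281 in PTU exposed pups. Its groups overlapped over nearly their whole range, and the difference of -0.29 on the log2 scale was smaller than the spread between pups (95% interval -0.78 to 0.20; limma, adjusted p = 0.547). Without PTU replicate 6 it was -0.14, and without PTU replicate 5 -0.41.

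*Fzd3* (ENSRNOT00000109699) and *Fzd6* (ENSRNOT00000006195) are the Frizzled genes best known for planar cell polarity and axon guidance. *Fzd3* ran from 1822 to 2468 with a median of 2280 in controls and from 1559 to 2246 with a median of 1946 after PTU. All 6 PTU exposed pups lay below the control mean, and 1 control pup, replicate 5, lay well below the other 6 controls. The log2 fold change of *Fzd3* was -0.23 with a standard error of 0.09 (limma, adjusted p = 0.250; exact permutation test, p = 0.0355). *Fzd6* ran from 403 to 794 with a median of 567 in controls and from 329.9 to 536 with a median of 447 after PTU. Here 5 of 7 control pups were above every PTU exposed pup, and control replicates 1 and 6, at 403 and 504, were among the PTU values. Its log2 fold change was -0.38 with a standard error of 0.15 (limma, adjusted p = 0.228; exact permutation test, p = 0.028).

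*Fzd9* (ENSRNOT00000001973), from the subfamily that also holds *Fzd4* and *Fzd10*, was the member with the fewest reads, an estimated 35 to 134 per pup. It ran from 45.0 to 112 with a median of 61.9 in controls and from 33.3 to 121 with a median of 74.4 in PTU exposed pups, and the highest and the lowest of the 13 pups were both PTU exposed. The log2 fold change was -0.01, and its 95% interval of -0.67 to 0.65 spans both a sizeable decrease and a sizeable increase (limma, adjusted p = 0.993). The relatives outside the member list, named after their values were seen, had log2 fold changes of -0.12 (*Fzd4*, limma adjusted p = 0.778) and 0.39 (*Fzd10*, limma adjusted p = 0.627).

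The coreceptors varied least between pups. *Lrp5* (ENSRNOT00000094146) had a coefficient of variation of 5.27% in controls and 7.98% after PTU, and *Lrp6* (ENSRNOT00000082102) one of 6.74% and 6.54%. Among the Frizzled genes it ran from 9.10% (*Fzd3*, control) to 43.8% (*Fzd9*, PTU). *Lrp5* ran from 1087 to 1253 with a median of 1174 in controls and from 976 to 1200.0 with a median of 1065 in PTU exposed pups. Of the PTU exposed pups, 5 of 6 lay below the control mean and 3 below the lowest control. Its log2 fold change was -0.12 (95% interval -0.29 to 0.04; limma, adjusted p = 0.447; exact permutation test, p = 0.0501). *Lrp6* ran from 2486 to 3064 with a median of 2677 in controls and from 2309 to 2728 with a median of 2589 after PTU. Its log2 fold change was -0.09, with a 95% interval of -0.24 to 0.06 (limma, adjusted p = 0.543).

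**Figure D1:**
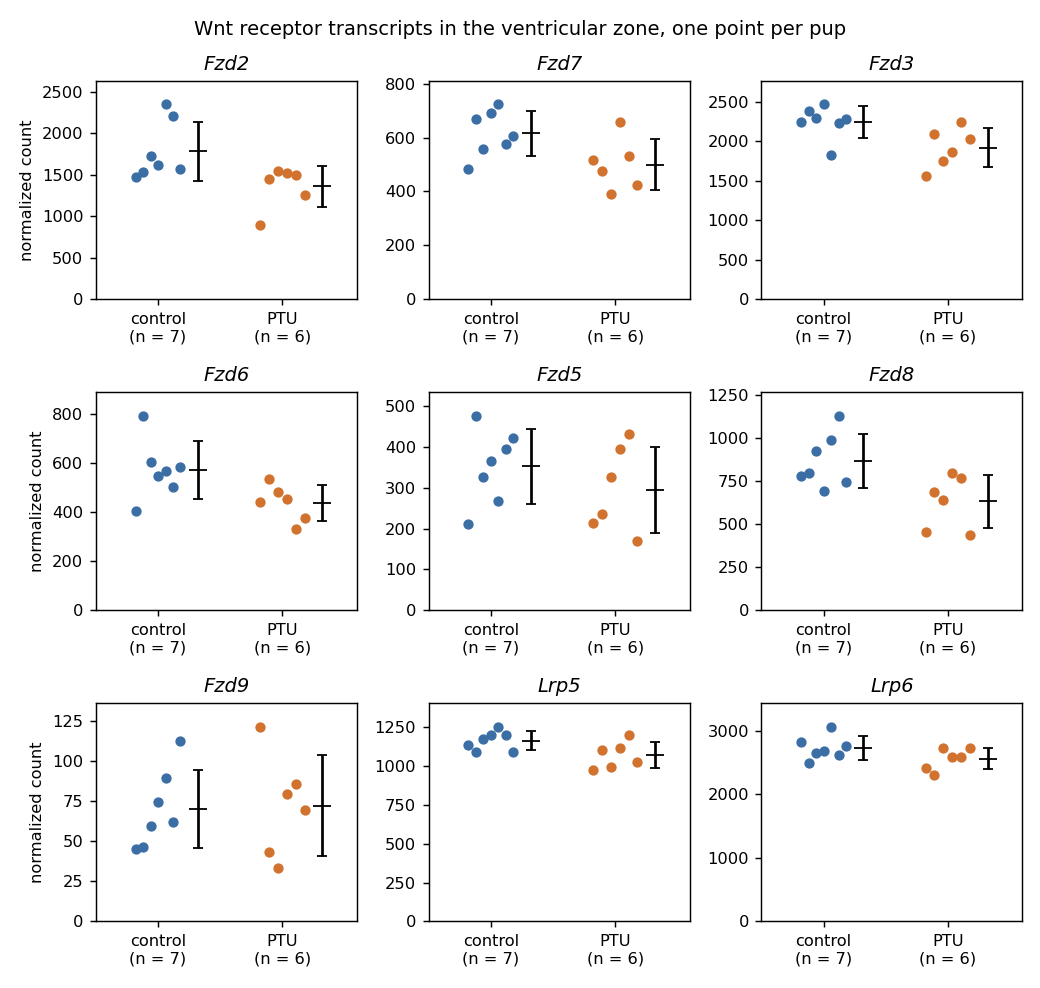
Normalized count (y axis, from 0) of each of the 9 receptor transcripts in every pup, with 7 control pups in blue and 6 PTU exposed pups in orange; the bar gives the mean and SD of each group. The groups overlap in all 9 panels. The largest log2 fold change on the deposited scale is that of *Fzd8*, where 4 of 6 PTU exposed pups lie below the lowest control. In *Fzd2* and *Fzd6* 5 controls lie above every PTU exposed pup, against 3 in *Fzd8*.

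The lower values did not come from a single pup. The lowest of the 13 pups was PTU exposed for each of the 9 members: PTU replicate 1 for 3 of them, replicates 3 and 6 for 2 each, and replicates 2 and 5 for 1 each. The highest pup was a control for 8 members, *Fzd9* being the exception. Each PTU exposed pup had between 6 and 9 of the 9 members below the control mean, whereas control pups had between 3 and 8. Averaged over the 7 Frizzled genes, the log2 difference from the control mean was -0.52 and -0.41 in PTU replicates 6 and 3, but only -0.04 and -0.09 in replicates 4 and 5. Of the controls, 6 were between -0.02 and 0.11, above all 6 PTU exposed pups, and control replicate 1 was at -0.35.

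Among themselves the receptors varied together only in part. Of 36 pairs of members, 24 had a Pearson r above 0 after values were centred within groups (median r 0.13), and 0 passed an adjusted p of 0.05. The highest was *Fzd2* with *Fzd8*, with r = 0.81 (permutation p = 0.0015, adjusted p = 0.0540) and Spearman rho = 0.77 (permutation p = 0.0027, adjusted p = 0.0972) over the 13 pups. Without the 2 pups farthest from the *Fzd2* median, r was 0.79. *Lrp5* followed both of these, with r = 0.69 for *Fzd8* (rho = 0.73) and r = 0.68 for *Fzd2* (rho = 0.62), and permutation adjusted p-values of 0.270 and 0.244; without the 2 farthest pups these r were 0.61 and 0.50. The lowest r was -0.48, between *Fzd6* and *Lrp6* (rho = -0.43; permutation p = 0.117, adjusted p = 0.70; -0.28 without the 2 farthest pups). All points share their library and its depth. The 5 named genes whose centred values were most like the mean of the members over the 13 pups were *Abhd17b* (r = 0.92), *Spr* (0.92), *Lrp10* (0.91), *Pebp1* (0.91) and *Poldip2* (0.91), a ranking over all named rows that carries no test.

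**Figure D2:**
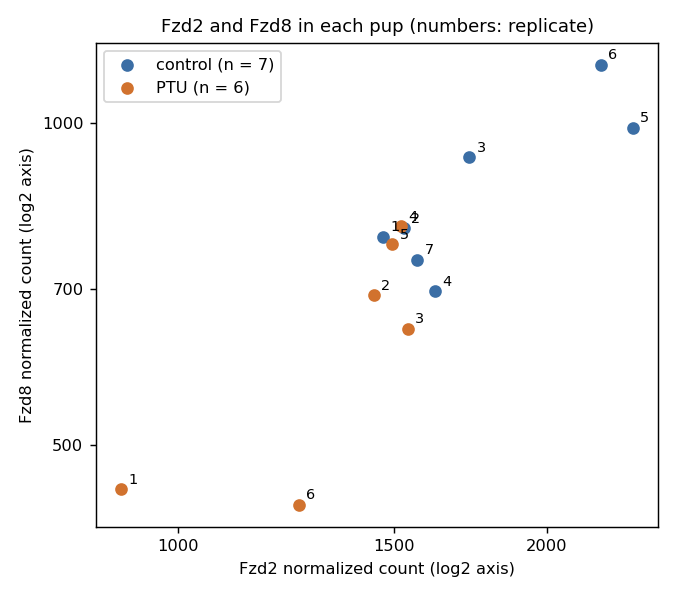
*Fzd2* (x axis) against *Fzd8* (y axis) in normalized counts on log2 axes, one point per pup, numbered by replicate, with controls in blue and PTU exposed pups in orange. Pups high in one transcript tend to be high in the other, with exceptions such as control replicate 4 (*Fzd2* 1620, *Fzd8* 696). PTU replicates 1 and 6 lie lowest in both. After centring within groups r was 0.81 (permutation test, adjusted p = 0.0540).

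Cell type markers measured in the same pups also had different values in the groups. In bulk tissue, fewer cells of a type and less RNA per cell cannot be told apart. *Sox2*, a marker of VZ stem cells, lay between 5209 and 8384 in all 13 pups. All 9 radial glia markers were lower after PTU, 5 of them with an unadjusted p under 0.05, and their summed normalized count ran from 61911 to 82327 in PTU exposed pups and from 74726 to 104143 in controls. The 7 choroid plexus markers were all lower as well (4 with p under 0.05), with summed counts of 22596 to 97018 after PTU and 48543 to 136753 in controls, and none of them was at 0 in any pup. The choroid plexus lies beside the VZ and secretes the cerebrospinal fluid; the capture was aimed at the pseudostratified epithelium and was not meant to take it. The 6 neuron markers were all higher after PTU (4 with p under 0.05), from 67583 to 103961 as against 51373 to 74858. Of 4 intermediate progenitor markers 3 were lower, 1 with p under 0.05. Median log2 fold changes were -0.29 for radial glia, -0.23 for intermediate progenitor, 0.33 for neuron and -0.67 for choroid plexus markers. The median of the 9 receptors, given above, was also -0.29. In the other lists the medians were -0.03 for ependymal, 0.18 for oligodendrocyte lineage, 0.24 for endothelial, 0.03 for pericyte and 0.02 for microglial markers. The 1 erythrocyte marker tested was at -0.47. Of these lists, 2 of 3 pericyte markers had p under 0.05 in opposite directions (*Pdgfrb* at -0.26 and *Cspg4* at 0.36). So had 1 of 5 microglial markers, *C1qa*, at -0.50, and none in the other 4 lists. *Cspg4* encodes NG2, which the paper counts among genes of oligodendrocyte progenitors, so it is not a marker of pericytes alone. No marker of any list passed the adjusted threshold.

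Fitting these marker scores beside the group moved the receptor values. With the mean log2 level of the neuron markers as a covariate, all 9 members kept a negative sign, their median was -0.19, and 0 had an unadjusted p under 0.05, where 3.52% of all rows were lower at that level. *Fzd8* was then at -0.19 and *Fzd2* at -0.12, while *Fzd3*, at -0.20, was near its value without the covariate. *Fzd5* was at -0.07, *Fzd6* at -0.25, *Fzd7* at -0.19, *Fzd9* at -0.20, *Lrp5* at -0.05 and *Lrp6* at -0.07. With the choroid plexus markers as a covariate the median of the members was -0.15, and *Fzd2* was at -0.43, *Fzd3* at -0.30 and *Fzd8* at -0.43, each with an unadjusted p under 0.05, where 7.26% of all rows were lower at that level. *Fzd6*, at -0.28, no longer had an unadjusted p under 0.05, nor had *Fzd7*. *Fzd7* and *Fzd5* were then at -0.15 and -0.07, and *Fzd9* at 0.19. The score and the group are related across 13 pups, and the part of cell composition in the receptor differences was not tested.

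The values also moved with the scaling of the libraries. The 3 highest rows of each pup held 32.4 to 60.1% of its normalized counts in controls and 23.9 to 57.0% in PTU exposed pups. With all 13 totals made equal, the median of all rows was 0.20. The median of the members was then -0.09, and *Fzd9*, *Lrp5* and *Lrp6* were above 0 at 0.19, 0.08 and 0.11. Under this scaling 0 members had an unadjusted p under 0.05, and of all rows 81 were lower and 1584 higher at that level, as against 1198 and 1185. Relative to the median of all rows, the median of the members was -0.29 under both scalings, and with equal totals *Fzd8* stood at -0.48, *Lrp5* at -0.12 and *Lrp6* at -0.09 relative to all rows.

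**Figure D3:**
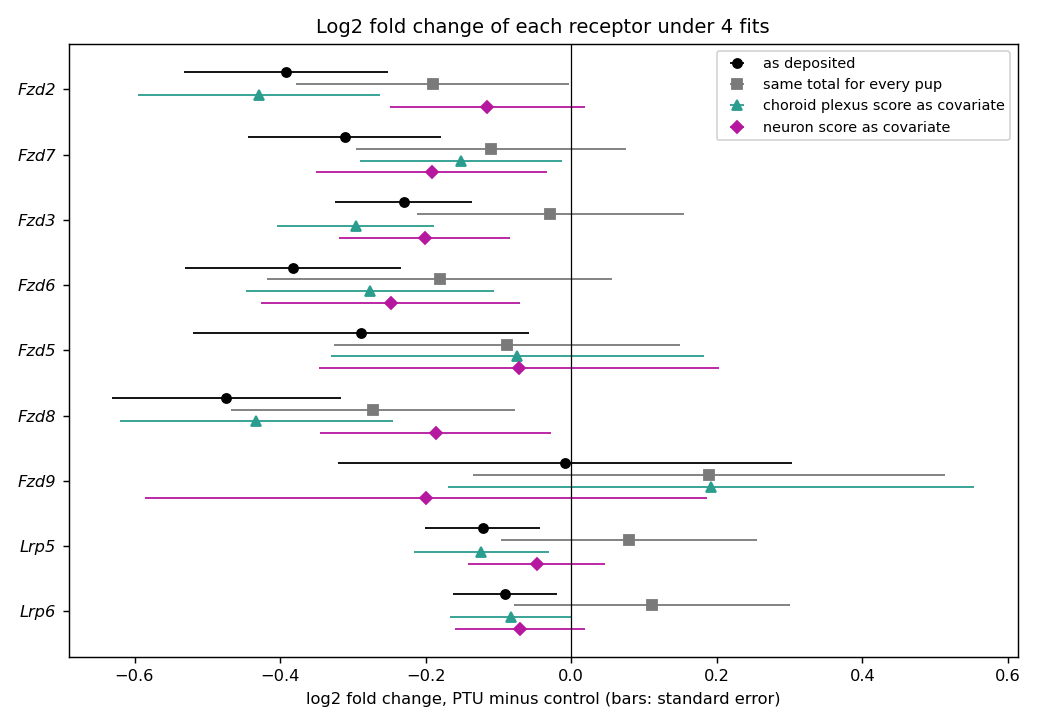
Log2 fold change, PTU minus control (x axis), of each of the 9 receptors, with its standard error as a bar, as deposited (black), with the totals of all pups made equal (grey), and with the choroid plexus (green) or neuron (magenta) marker score as a covariate. The 6 Frizzled genes other than *Fzd9* stay below 0 in all 4 fits, and *Fzd9*, *Lrp5* and *Lrp6* are above 0 when totals are made equal, *Fzd9* also with the choroid plexus score.

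The other genes of the pathway were read from lists by role, 92 genes with 71 tested. Of these, 38 were lower and 33 higher, 0 passed the adjusted threshold, and 12 lower and 1 higher had an unadjusted p under 0.05, together 18.3% of those tested and near the 16.3% of all rows. In the lower direction alone the share was 16.9%, beside 8.2% of all rows. The lists of ligands, secreted proteins, receptor turnover and other receptors held 10 of these 12 among 32 tested genes, and the 3 remaining lists 2 among 39, a difference that was not tested. Of the Wnt ligands, 6 of 7 tested were lower (median -0.29), and *Wnt7a*, a ligand made by the VZ, was at 1290 ± 221 (SD, n = 6) after PTU and 1562 ± 189 (SD, n = 7) in controls, a log2 fold change of -0.29 (limma, adjusted p = 0.237). Of 7 genes for Wnt secretion and secreted inhibitors, 5 were lower (median -0.08). *Sfrp2* (-0.40, limma adjusted p = 0.156) and *Sfrp1* (-0.34, adjusted p = 0.208), which encode soluble proteins that bind Wnt, and *Dkk3* (-0.47, adjusted p = 0.167), a relative of the LRP blockers, had p under 0.05. With the choroid plexus score as a covariate *Sfrp1* was at -0.20, *Dkk3* at -0.28 and *Wnt7a* at -0.44. With the neuron score *Sfrp1* was at -0.08 and *Wnt7a* at -0.18.

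Genes that set how many receptors stay at the surface were lower in 7 of 9 cases (median -0.27). *Rnf43*, an E3 ligase that removes Frizzled from the membrane, had a log2 fold change of -0.85 (limma, adjusted p = 0.148), with 6 of 6 PTU exposed pups below the control mean of 188. *Znrf3*, the other such ligase in the list, had one of -0.03 (limma, adjusted p = 0.937). *Rspo3*, an R-spondin that shields the receptors from this removal, had one of -1.03 (limma, adjusted p = 0.30), at a low level of 29.3 ± 21.2 (SD, n = 6) as against 54.8 ± 26.5 (SD, n = 7). The value of *Rspo3* was -0.21 with the choroid plexus score as a covariate and -1.36 with the neuron score. Of 9 other Wnt receptors and coreceptors, 6 were lower (median -0.12). They included *Ptk7*, a planar cell polarity coreceptor (-0.34, limma adjusted p = 0.148), *Ror1*, a receptor for Wnt5a (-0.86, adjusted p = 0.231), *Reck*, a partner in Wnt7 recognition (-0.39, adjusted p = 0.263), and *Lrp4* (-0.28, adjusted p = 0.267). With the choroid plexus score *Ror1* was at -0.44 and *Reck* at -0.14, and with the neuron score *Reck* was at -0.14, *Ptk7* at -0.18 and *Lrp4* at -0.07.

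Downstream of the receptors the values were spread about 0. Of 18 cytoplasmic genes 5 were lower and 13 higher (median 0.03), and of 12 nuclear effectors 5 were lower and 7 higher (median 0.05). *Apc*, a scaffold of the complex that breaks down beta-catenin, was the one pathway gene higher with p under 0.05 on the deposited scale, at 0.36 (limma, adjusted p = 0.174), and *Csnk1a1*, a kinase of that complex, was at -0.22 (adjusted p = 0.269). The Dishevelled genes *Dvl1*, *Dvl2* and *Dvl3* had log2 fold changes of 0.01, -0.26 and -0.07, and *Ctnnb1*, which encodes beta-catenin, one of 0.01 (95% interval -0.20 to 0.21). *Tcf7l1*, a nuclear factor that mostly represses, was at -0.42 (limma, adjusted p = 0.207), and *Lef1* at 0.24 (adjusted p = 0.461). With the neuron score *Apc* was at 0.19, *Tcf7l1* at -0.26, *Dvl2* at -0.05, *Dvl1* at 0.10 and *Ctnnb1* at 0.14, and with the choroid plexus score *Lef1* was at 0.44, one of 4 pathway genes then higher with p under 0.05, beside 7 lower. Of 9 feedback and target genes 4 were lower, 5 higher and 0 had p under 0.05 (median 0.02). *Axin2*, the most widely used readout of beta-catenin signaling, stood at 1424 ± 185 (SD, n = 7) in controls against 1429 ± 44.0 (SD, n = 6) under PTU, and its log2 fold change was 0.02 (95% interval -0.18 to 0.21; limma, adjusted p = 0.946). With equal totals, *Ctnnb1*, *Axin2* and *Dvl1* were at 0.21, 0.22 and 0.21, and *Dvl3* at 0.13. The genes named as lower were nearer 0 under it, with *Wnt7a* at -0.09, *Sfrp1* at -0.14, *Sfrp2* at -0.20, *Dkk3* at -0.26, *Ptk7* at -0.14, *Lrp4* at -0.08, *Reck* at -0.19, *Tcf7l1* at -0.22 and *Csnk1a1* at -0.02, while *Apc* was at 0.56. The shift is that of all rows given above, and relative to their median *Wnt7a* stood at -0.29 under both scalings. Under that scaling 1 pathway gene was lower and 3 higher with p under 0.05.

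**Figure D4:**
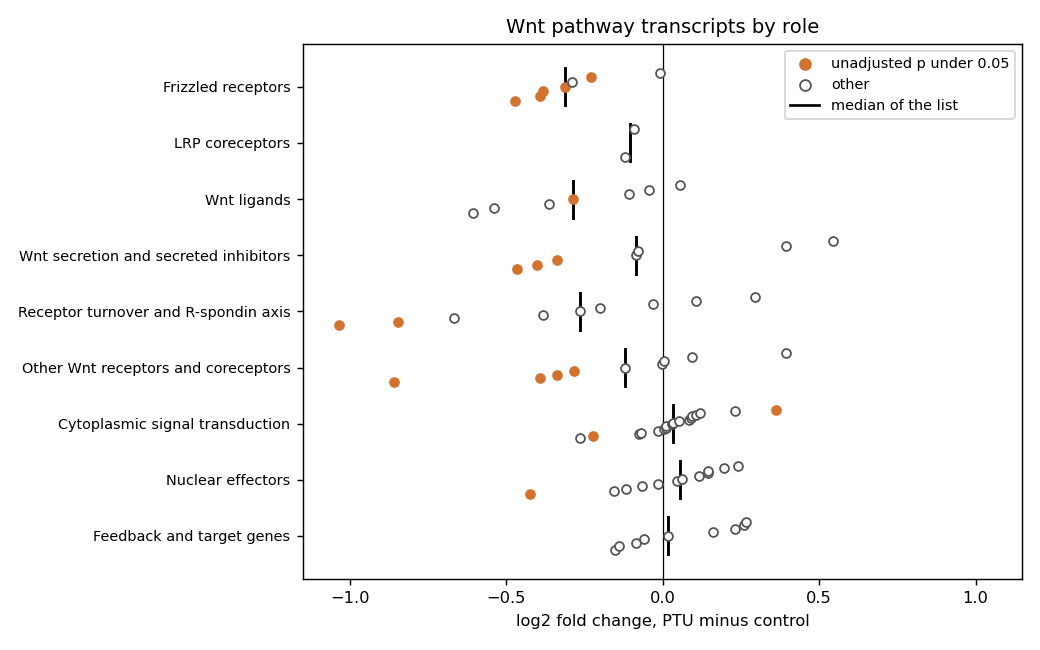
Log2 fold change, PTU minus control (x axis), of each tested Wnt pathway gene, one point per gene, by role (y axis); filled points had an unadjusted limma p under 0.05 and the black line is the median of the list. The medians are -0.31 for the Frizzled genes, -0.29 for the ligands, -0.08 for secretion and secreted inhibitors, -0.27 for receptor turnover and -0.12 for the other receptors. *Lrp5* and *Lrp6* are at -0.12 and -0.09. The medians are between 0.02 and 0.05 for the cytoplasmic, nuclear and target genes.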

How the data were processed

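RNA from laser captured VZ was sequenced from 7 control and 6 PTU exposed pups. The paper reports some degradation of the captured VZ RNA, and its part in the values was not tested. The authors trimmed reads with Trimmomatic, aligned them to mRatBN7.2 (rn7) with STAR 2.7.8a, counted by expectation/maximization (E/M) in Partek and normalized by median ratio. What was deposited is a signal, the normalized count. The deposited p-value, FDR, ratio, log2 ratio and signed fold change (a score) of the authors' DESeq2 comparison were not used. Methods name a RefSeq annotation, whereas rows carry Ensembl identifiers.

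Depth, estimated from the step between low values, was 22295808 to 43513455 reads in control and 28415051 to 44388545 in PTU exposed pups. Of values from 20 to 150, 89.9 to 91.6% were whole multiples of that step (within 0.1 of a step), so whole reads were not recovered and no count model was run.

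Rows with a mean of at least 10 (14606 of 14716; 1488 of all rows have no gene name) were compared as log2(normalized count + 1) with limma 3.58.1 in R 4.3.3 (empirical Bayes with a variance trend, Benjamini-Hochberg adjustment, threshold 0.05, two-sided). Fold changes on this scale understate those of low rows. Single genes were also tested by an exact permutation test over 1716 regroupings, whose smallest p is 0.000583. Correlations used 100000 permutations. The limma fit, the exact test and TMM scaling were tested on simulated data. Alternatives changed the pseudocount, filter, scaling, variance prior, array weights, covariates, replicate block and summing of rows, or left out each pup in turn. Tables and plots were made in Python 3.11.15 with scipy 1.17.1, pandas 2.3.3, matplotlib 3.10.9 and numpy 2.4.6. Named genes are every member, up to 4 genes of each pathway list with the smallest unadjusted p under 0.05, *Ctnnb1*, *Axin2*, *Lef1* and the *Dvl* genes, and the 5 rows most like the members. *Fzd4*, *Fzd10*, *Znrf3*, *Sox2*, *Pdgfrb*, *Cspg4* and *C1qa* were named after their values were seen. Members and lists were chosen with earlier results of these data known.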

Additional observations from a re-analysis of the deposited data

Results flagged for a closer look

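Of 18 groups of values examined (9 members in each of 2 groups), 1 held a pup set apart from its group. Control replicate 5 had a *Fzd3* normalized count of 1822, and the nearest of the other controls had 2236. Chance sets apart about 1 in 20 groups. The same pup had the highest count of the 13 in 4 of the 9 members. Without it, the log2 fold change of *Fzd3* was -0.28.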

How the results depend on the processing

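No member passed the adjusted threshold under any of 26 alternatives, and *Fzd2*, *Fzd3*, *Fzd5*, *Fzd6*, *Fzd7* and *Fzd8* kept their direction in all of them. The lowest adjusted p among members was 0.0851, for *Fzd2* with the replicate block. The count of 5 members with an unadjusted p under 0.05 became 0 with the same total for every pup, 3 with the choroid plexus score and 0 with the neuron score as a covariate. Of all rows, 0.555%, 7.26% and 3.52% were lower at that level in these fits. Leaving out 1 pup gave counts from 3 to 5 (3 without control replicate 4 or PTU replicate 3), where 6.14 to 10.2% of all rows were lower at that level. The members' medians then ran from -0.39 to -0.21. With the same total the median was -0.088, and *Fzd9*, *Lrp5* and *Lrp6* reversed to 0.19, 0.080 and 0.11. *Fzd9* also reversed to 0.19 with the choroid plexus score, and ranged from -0.18 to 0.18 when 1 pup was left out, above 0 in 5 of these fits. The count of 13 pathway genes with an unadjusted p under 0.05, an alternative chosen after seeing the data, became 4 with the same total, 5 with the neuron score and 11 (7 lower, 4 higher) with the choroid plexus score, and 9 to 14 when 1 pup was left out.

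Replicate numbers belong to different litters. Same-numbered pups correlated at -0.07 to 0.20, 4 of 6 pairs above 0.1, and 1 of 6 PTU exposed pups correlated best with its own number. The replicate block, which drops control replicate 7, left 4 members with an unadjusted p under 0.05, all lower, where 10.2% of all rows were lower at that level. It called 18 rows and put *Fzd9* at 0.12. Rows called over all genes numbered 40 with array weights, 4 with the choroid plexus score, 7 without control replicate 6 and 179 without PTU replicate 2, and 0 otherwise; the causes were not tested. With a mean of at least 100, *Fzd9* was not tested. Estimated at 35 to 134 reads, it had the fewest of the members.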
